A study of Mus musculus with 12 samples.

Results

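The 10 genes that mark Cajal-Retzius cells, the cortical hem and the choroid plexus were followed through RNA-seq libraries of dorsal cortical ventricular zone from mouse embryos. They were found by matching the gene symbols to the mouse Ensembl identifiers of the deposited tables, and make up 10 of 55487 identifiers. Reln, Trp73, Lhx1, Lhx5, Ebf2, Ebf3, Calb2 and Nhlh2 stand for Cajal-Retzius cells, Lmx1a for the hem and Ttr for the choroid plexus. The 12 libraries formed 4 groups of 3, at E13.5 or E16.5 (embryonic day) and with or without the p18mKO2 label. The p18mKO2- groups carry the genotype label normal and the p18mKO2+ groups are labelled as over-expressing p18mKO2. The mouse line has a stop sequence between loxP sites, followed by p18, a P2A peptide and the fluorescent protein mKO2, knocked into ROSA26. The protein p18 is the cyclin-dependent kinase inhibitor encoded by Cdkn2c. Tamoxifen was injected into the peritoneum to induce Cre recombination and is listed for all 4 groups. The sources used here do not give the Cre driver, and therefore not the cells in which the cassette was opened. Tissue fragments were cut by laser microdissection. The labels do not say whether the 3 libraries of a group came from separate embryos. Transcripts of the sexes, given below, differed between libraries in every group but E13.5 p18mKO2-, so those groups did not come from a single embryo each. The p-values measure the spread between libraries, part of which may be technical.

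Cajal-Retzius cells are early-born neurons of the cortical marginal zone, just beneath the pia, and secrete Reelin, the extracellular protein that guides the layering of later-born neurons. Many of them arise at the cortical hem, a signalling centre at the medial edge of the cortex that releases Wnt and BMP proteins, and others come from the septum, the thalamic eminence and the boundary of pallium and subpallium. The hem lies beside the choroid plexus epithelium, which secretes cerebrospinal fluid, and neither it nor Cajal-Retzius cells belong to the ventricular zone of the dorsal cortex itself. In bulk tissue, fewer cells of a type and less RNA per cell cannot be told apart.

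In units of 1e6, the libraries held between 17.1 and 21.84 estimated counts. Radial glia genes, which define the labelled tissue, summed to between 1991 and 3937 TPM (a level corrected for gene length and scaled to a fixed total per library) over 13 genes, with none at 0 in any library. Cdkn2c, the gene carried by the cassette, lay between 21.6 and 32.6 CPM (counts scaled to library size, with no length correction) in the E13.5 p18mKO2+ libraries and between 17.7 and 27.6 CPM in the E13.5 p18mKO2- libraries. Its log2 change was 0.14 ± 0.26 at E13.5 (SE; quasi-likelihood test of edgeR, adjusted p = 0.798 after Benjamini-Hochberg) and 0.32 ± 0.26 at E16.5 (adjusted p = 1). The count test did not call it, while in TPM the groups did not overlap: Cdkn2c stood at 16.05 to 26.54 TPM in p18mKO2- and 27.67 to 32.63 TPM in p18mKO2+ at E13.5, and at 13.65 to 28.66 and 32.1 to 43.55 TPM at E16.5. On log2(TPM + 0.5) the median label effect over all genes was also higher than in counts, by 0.152 at E13.5 and 0.256 at E16.5. In 2 libraries, replicate 3 of E13.5 p18mKO2+ and replicate 3 of E16.5 p18mKO2+, both Xist and the Y-linked Eif2s3y exceeded 10 CPM, so they held transcripts of both sexes. Xist stood at 1903 to 1937 CPM and Eif2s3y at 0 CPM in E13.5 p18mKO2-. In E13.5 p18mKO2+ they stood at 1965 and 0 CPM in replicate 1 and at 3.565 and 38.35 CPM in replicate 2. At E16.5 Xist stood at 1720 and 1536 CPM in p18mKO2- replicates 1 and 3. At that stage Eif2s3y stood at 52.65 CPM in p18mKO2- replicate 2 and at 36.34 and 49.8 CPM in p18mKO2+ replicates 1 and 2. Sex was thus uneven across the label, and its part in the label comparisons was not tested.

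Replicate 3 of E13.5 p18mKO2+ also stood apart in the Cajal-Retzius genes. Compared with the highest of the other 5 E13.5 libraries, its TPM level was 10.9 times as high for Lhx1, 9.98 times for Ebf3, 3.69 times for Ebf2 and 3.64 times for Lhx5. The same ratio was 1.12 for Reln, 0.884 for Nhlh2, 0.523 for Trp73, 0.463 for Calb2 and 0.0282 for Ttr, so the library was not high in all Cajal-Retzius genes. Genes of the thalamus and diencephalon were high in it as well: the 8 genes of that list summed to 205.9 TPM, against 19.38 and 44.31 TPM in the other two libraries of its group and 42.3 to 143.1 TPM in E13.5 p18mKO2-. Within this list Irx1 stood at 13.6 CPM in that library and at 0 to 6.08 CPM in the other E13.5 libraries, and Irx2 at 22.4 CPM against 0 to 5.43 CPM. Not every gene of the list was high there, since Lhx9 (110.3 CPM) lay within the range of the other E13.5 libraries and Gbx2 stood at 0.939 CPM, below the 2.34 to 11.99 CPM of E13.5 p18mKO2-. Emx1, a gene of dorsal cortical progenitors, stood at 26.8 CPM there and at 55.1 to 98.5 CPM in the other E13.5 libraries. The library was also the highest at E13.5 in summed pan-neuronal genes (3829 TPM, against 1186 to 2774 TPM in the others). The same held for genes of the ventral telencephalon and its interneurons (652.2 against 172.1 to 441.4 TPM). It was the lowest in summed radial glia genes (2495 against 3291 to 3937 TPM). Most results that rest on this library are given with and without it, while the ranking of genes by similar pattern includes it throughout.

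The members differed widely in level. In E13.5 p18mKO2-, mean TPM levels ran from 225 ± 237 for Ttr (SD, n = 3 here and below), through 29.1 ± 5.38 for Reln and 24.7 ± 6.72 for Nhlh2, to 0.9 for Lhx5. The ranges of Nhlh2 and Ebf3 (5.11 TPM) did not overlap, nor did those of Ebf2 (2.48) and Lmx1a (1.09), whereas all other neighbours in the order overlapped. In E16.5 p18mKO2- the order began with Ttr (450.1 TPM), Reln (40.4), Nhlh2 (7.05) and Calb2 (3.36), each without overlap with the next, and ended with Lmx1a (0.28), Ebf2 (0.24) and Lhx1 (0.123). In both p18mKO2+ groups Ttr and Reln again came first, at 535.7 and 58.5 TPM at E13.5 and at 1382 and 40.3 TPM at E16.5. Reln was thus the most abundant of the 8 Cajal-Retzius genes in all 4 groups by mean TPM.

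**Figure D1:**
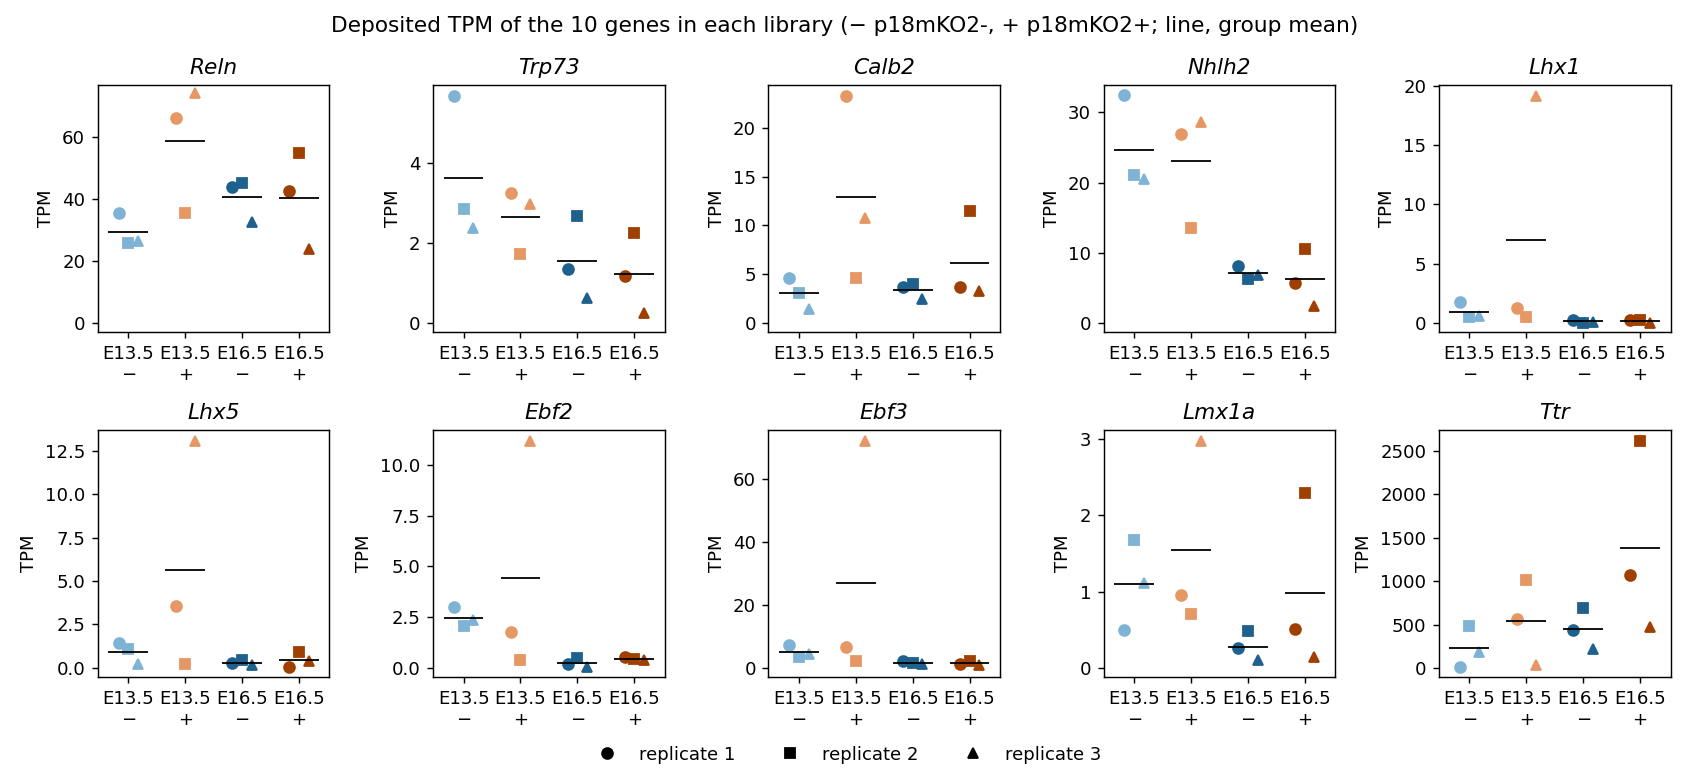
TPM level of each of the 10 genes in every library, with points for the 3 libraries of each of the 4 groups and a line at the group mean. Each panel has its own linear axis. Lhx1 and Ebf3 of E13.5 p18mKO2+ replicate 3 (19.14 and 71.87 TPM) lie far above all other libraries, while Nhlh2 lies lower in the E16.5 groups than in the E13.5 groups.

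Promoter sequences are shown for 4 of the genes, namely the 3 Cajal-Retzius genes that had a matched promoter and fell between the stages in at least 1 of the p18 groups, and Reln, which did not. They are RefSeq sequences of the mouse build GRCm38.p6, available for 6 of the 10 genes, and cover at most 250 bases before a transcription start, 5′ to 3′ on the gene's strand. Capitals mark the 6-base E-box CANNTG, the core letters bound by basic helix-loop-helix factors, the family of Nhlh2, and the 8-base CCCNNGGG, the core of the palindrome bound by EBF factors, the family of Ebf2 and Ebf3. Both motifs read the same on both strands. For Trp73 the window lies within the gene, before the internal start from which shortened forms without the activation domain are made.

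Nhlh2, chr3:102009895-102010075, plus strand: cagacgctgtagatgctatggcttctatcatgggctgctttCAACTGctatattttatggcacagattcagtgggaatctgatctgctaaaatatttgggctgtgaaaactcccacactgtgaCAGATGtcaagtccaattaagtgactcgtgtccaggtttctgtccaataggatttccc

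Trp73, chr4:154097174-154097423, minus strand: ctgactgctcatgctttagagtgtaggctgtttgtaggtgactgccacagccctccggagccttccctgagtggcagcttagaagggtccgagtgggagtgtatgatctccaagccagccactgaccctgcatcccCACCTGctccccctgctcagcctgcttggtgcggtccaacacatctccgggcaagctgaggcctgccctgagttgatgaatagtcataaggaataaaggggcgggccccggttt

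Ebf3, chr7:137314446-137314695, minus strand: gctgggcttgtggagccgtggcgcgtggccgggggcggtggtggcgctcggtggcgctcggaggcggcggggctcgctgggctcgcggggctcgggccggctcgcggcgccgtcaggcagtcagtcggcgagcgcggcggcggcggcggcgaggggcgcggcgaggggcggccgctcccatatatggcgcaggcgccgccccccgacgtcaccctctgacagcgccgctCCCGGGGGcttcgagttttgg

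Reln, chr5:22344706-22344955, minus strand: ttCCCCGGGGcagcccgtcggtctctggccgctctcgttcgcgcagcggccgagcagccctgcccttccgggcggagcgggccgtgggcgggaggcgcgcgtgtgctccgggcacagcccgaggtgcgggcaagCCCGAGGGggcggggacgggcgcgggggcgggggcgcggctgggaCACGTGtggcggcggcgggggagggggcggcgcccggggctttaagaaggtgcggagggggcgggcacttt

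The Nhlh2 window held 2 E-boxes, the windows of Trp73 and Reln 1 each and that of Ebf3 none. Reln held 2 matches to CCCNNGGG and Ebf3 held 1. Over the 7 windows of the 6 matched genes, which include Lmx1a, Lhx1 and a more distal Trp73 start, 5 held an E-box and 3 held CCCNNGGG, and no E-box overlapped a CCCNNGGG. Among all 32851 promoter windows of the same length, 66.2% held an E-box and 11.8% CCCNNGGG. The homeodomain core TAATTA occurred in 0 of the 7 windows and in 4.84% of all windows. A match is a description of the letters and was not tied to binding here.

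The first comparison followed the members from E13.5 to E16.5 in p18mKO2- libraries, the labelled normal tissue. Transcripts of the Cajal-Retzius transcription factor genes Nhlh2, Ebf2 and Trp73 fell, while Reln itself did not fall and had a positive change that missed the threshold. Of the 10 genes, 3 fell and 0 rose in edgeR's quasi-likelihood test (adjusted p under 0.05 over 16798 genes). In this comparison 29.8% of all genes tested were called, 13.4% as lower, so a count of 3 of 10 is the share that genes in general gave in either direction. The count was 7 with no filter on low counts, of which 2 were rises (Reln at 0.61, edgeR adjusted p = 0.00846, and Ttr at 1.004, 0.0341), and 5 with only the 6 libraries compared. Under these settings 18.5% and 23.6% of all genes were called. The median log2 change was -1.67 over the 10 genes and -0.02 over all genes tested.

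Nhlh2 encodes a basic helix-loop-helix factor of young neurons (chromosome 3, 102010076 to 102015492, plus strand, GRCm38). Its TPM level was 32.43, 21.03 and 20.58 in E13.5 p18mKO2- replicates 1 to 3 and 8.09, 6.31 and 6.75 in E16.5 p18mKO2-. All E16.5 libraries lay below all E13.5 libraries. The log2 change was -1.77 ± 0.37 (SE; edgeR adjusted p = 0.00264), and over 14 other settings it ran from -1.87 to -1.56 and kept its call in all 14, with adjusted p from 9.96e-10 to 0.0151.

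Ebf2, an early B-cell factor gene of Cajal-Retzius cells (chromosome 14, 67233292 to 67430918, plus strand), stood at 3.02, 2.07 and 2.35 TPM in E13.5 p18mKO2- and at 0.18, 0.48 and 0.06 TPM in E16.5 p18mKO2-. The groups did not overlap, and the E16.5 level was low in each library. Its log2 change was -3.40 ± 0.90 (edgeR adjusted p = 0.0113), and limma-voom did not call it (adjusted p = 0.131; 3.46e-08 to 0.131 over 14 settings). Its relative Ebf3 (chromosome 7, 137193673 to 137314445, minus strand) stood at 7.2, 3.56 and 4.56 TPM at E13.5 and at 2.06, 1.5 and 1.13 TPM at E16.5. These groups did not overlap either, with a log2 change of -1.70 ± 0.87 that edgeR did not call (adjusted p = 0.164).

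Trp73 encodes p73, a p53-family factor that Cajal-Retzius cells of the hem express (chromosome 4, 154056253 to 154140208, minus strand). It stood at 5.7, 2.86 and 2.38 TPM at E13.5 and at 1.36, 2.68 and 0.62 TPM at E16.5 in p18mKO2-. In TPM the groups overlapped, since E16.5 replicate 2 lay above E13.5 replicate 3, whereas in CPM they did not. Its change was -1.64 ± 0.55 on the log2 scale (edgeR adjusted p = 0.0362). The call was lost without E13.5 replicate 1 (adjusted p = 0.167), without E16.5 replicates 1, 2 or 3 (0.0814, 0.0513 and 0.111) and on log2(TPM + 0.5) with limma-trend (0.168), and adjusted p ran from 0.00158 to 0.168 over 14 settings.

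Lhx1 and Lhx5 are LIM-homeodomain genes of Cajal-Retzius cells and of other forebrain regions. Lhx1 (chromosome 11, 84518284 to 84525535, minus strand) stood at 1.75, 0.47 and 0.59 TPM at E13.5 and at 0.27, 0 and 0.1 TPM at E16.5 in p18mKO2-. All E16.5 libraries were lower, and the library at 0 counts allows up to 0.147 CPM (3 counts, counting error only). The log2 change of -3.52 ± 1.38 was not called by edgeR (adjusted p = 0.0698), and with only the 6 libraries compared it was -3.49 (adjusted p = 0.0371). Lhx5 (chromosome 5, 120431699 to 120441223, plus strand) stood at 1.41, 1.09 and 0.2 TPM and then at 0.27, 0.48 and 0.15 TPM, so its groups overlapped (log2 change -1.56 ± 1.13, adjusted p = 0.334). The antisense gene Gm27199 overlaps the start of Lhx5 and held 197 counts over the 12 libraries. Whether the counting used strand is not stated in the labels, so reads of the pair may not be separated.

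Reln and Calb2 encode products of mature Cajal-Retzius cells, the secreted Reelin and the calcium-binding protein calretinin. Reln (chromosome 5, 21884454 to 22344702, minus strand) stood at 35.33, 25.72 and 26.32 TPM in E13.5 p18mKO2- and at 43.81, 44.98 and 32.42 TPM in E16.5 p18mKO2-. The groups overlapped through E16.5 replicate 3, and the log2 change was 0.57 ± 0.27 (edgeR adjusted p = 0.132). Without that library it was 0.78 (adjusted p = 0.0431). Calb2 (chromosome 8, 110137502 to 110168210, minus strand) stood at 4.57, 3.05 and 1.41 TPM and then at 3.68, 4.01 and 2.39 TPM. Its groups overlapped widely, with a log2 change of 0.17 ± 0.59 (edgeR adjusted p = 0.865) that was -0.15 without E13.5 p18mKO2- replicate 3. Calretinin and Reelin are also made by some interneurons.

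Lmx1a, a LIM-homeodomain gene that marks the hem (chromosome 1, 167689237 to 167848741, plus strand), stood at 0.5, 1.67 and 1.11 TPM in E13.5 p18mKO2- and at 0.26, 0.48 and 0.1 TPM in E16.5 p18mKO2-. The groups did not overlap, and the log2 change of -1.99 ± 0.91 was not called by edgeR (adjusted p = 0.12). Ttr, which encodes the thyroid hormone carrier transthyretin and is a very abundant choroid plexus transcript, stood at 15.46, 482.05 and 177.39 TPM at E13.5 and at 434.76, 694.65 and 220.94 TPM at E16.5. It spread over a wide range within the E13.5 group, and the log2 change of 0.97 ± 1.04 was not called (adjusted p = 0.533). The groups of 6 of the 10 members did not overlap in CPM (Trp73, Lhx1, Ebf2, Ebf3, Nhlh2 and Lmx1a), against 40.4% of all genes tested.

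Other genes of the same cells were read from lists chosen with earlier results of these data known. Of 15 further genes that Cajal-Retzius cells or their sources express, 7 fell and 2 rose in p18mKO2- (median log2 change -1.01). For this and the next lists, 13.4% of all genes tested fell and 16.4% rose. Nhlh1, the close relative of Nhlh2, changed by -1.999 ± 0.33 (edgeR adjusted p = 0.000511), and the zinc finger genes Zic5 and Zic2, which mark medial and septal tissue, by -1.99 ± 0.31 (adjusted p = 0.000317) and -1.61 (adjusted p = 0.00165). The 2 that rose were Ndnf at 1.16 and Tbr1, a T-box gene also of deep-layer neurons, at 1.40, both named after their values were seen. Of 14 hem genes tested, 6 fell and 0 rose (median -1.89, and the same with Wnt3a and Wnt8b, at 0 counts in the E16.5 group, set to the bound that 3 counts over the group give). Lef1, a transcription factor of Wnt signalling, changed by -3.26 ± 0.37 (adjusted p = 2.87e-05), the Wnt target Axin2 by -1.51 ± 0.27 (0.000802) and the R-spondin gene Rspo1 by -6.07 ± 1.32 (0.00332). The size for Rspo1 is loosely set: without E16.5 p18mKO2- replicate 1 it was -10.1 and without E13.5 p18mKO2- replicate 2 it was -4.99. Of 12 choroid plexus genes other than Ttr, 2 fell and 0 rose, a count of falls near the share of all genes. They were Otx2 at -2.76 (edgeR adjusted p = 0.0369) and Foxj1 at -1.05 (0.0401). Each lost its call in 4 of the 6 fits without 1 library: neither was called without replicate 2 of the E13.5 libraries or without replicate 1 of the E16.5 libraries, and in the former fit Otx2 was at -1.26 (edgeR adjusted p = 0.306) and Foxj1 at -0.85 (0.139).

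Of 12 genes of Reelin receptors and signalling, 6 rose and 0 fell in p18mKO2- (16.4% of all genes tested rose), and the other 6 were not called. Dab1, the adaptor of the Reelin receptors, changed by 1.498 ± 0.14 (SE; edgeR adjusted p = 6.34e-06). It stood at 132.6, 100.7 and 121.3 CPM at E13.5 and at 312.4, 328.0 and 361.4 CPM at E16.5. The Reelin receptor genes Vldlr and Lrp8 changed by 1.49 ± 0.20 (adjusted p = 0.000103) and 0.90 ± 0.15 (adjusted p = 0.000466). These genes are expressed by radial glia and migrating neurons rather than by the cells that secrete Reelin.

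Markers of neighbouring tissue moved with this comparison. The hem list summed to 73.45 to 150.7 TPM in E13.5 p18mKO2- and to 38.57 to 44.66 TPM in E16.5 p18mKO2-, over 15 genes. Genes of the thalamus and diencephalon, parts of which also express LIM-homeodomain and EBF genes, summed to 42.3 to 143.1 TPM and then to 6.65 to 13.66 TPM over 8 genes. Of the 7 tested, 3 fell, with Lhx9 at -5.10 ± 0.81 (edgeR adjusted p = 0.000362), Tcf7l2 at -2.81 ± 0.61 (0.00347) and Gbx2 at -4.85 ± 1.39 (0.0171). Gbx2 kept its call in 3 of the 6 fits without 1 library (edgeR adjusted p from 0.0162 to 0.0542). At E16.5 up to 5 of the 15 hem genes and up to 4 of the 8 thalamic genes were at 0 in a p18mKO2- library. Meningeal genes summed to 67.54 to 110.4 TPM and then to 50.8 to 81.76 TPM, with 3 of 10 lower. Of 12 pan-neuronal genes 9 rose, and their sum went from 1186 to 1557 TPM to 3372 to 3804 TPM. Radial glia genes summed to 3428 to 3937 TPM and then to 1991 to 3085 TPM. Of these 13 genes 10 fell and 1 rose, against 13.4% and 16.4% of all genes tested. The part of these tissues in the change of the members was not tested.

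**Figure D2:**
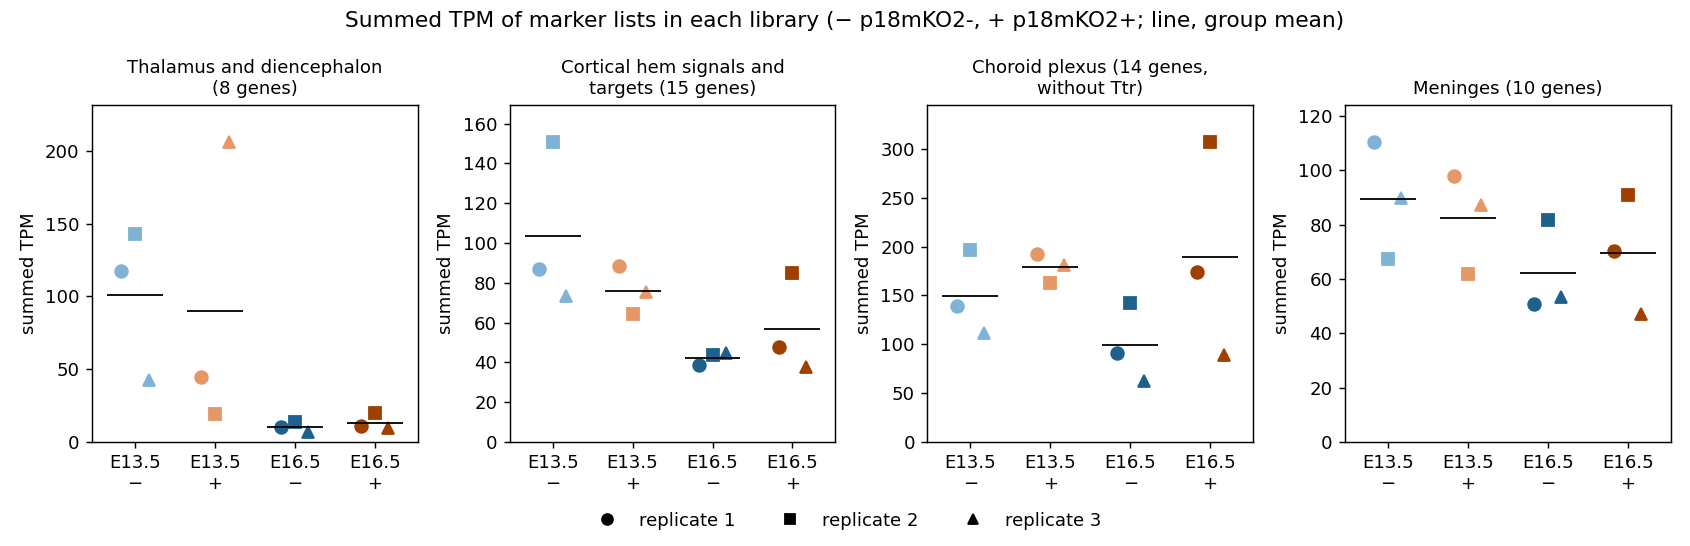
Summed TPM of gene lists in each library, on linear axes from 0, with points for the 3 libraries of each of the 4 groups and a line at the group mean. Hem genes (73.45 to 150.7 TPM in E13.5 p18mKO2-, 38.57 to 44.66 TPM in E16.5 p18mKO2-) and genes of the thalamus and diencephalon (205.9 TPM in E13.5 p18mKO2+ replicate 3) differ between stages and between libraries of a group.

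In p18mKO2+ libraries the same stage comparison called Nhlh2 and Ebf3 as lower. Of the 10 genes, 2 fell and 0 rose, with 1.64% of all genes tested called, 1.08% as higher and 0.554% as lower. The median log2 change was -1.69 over the 10 genes and -0.03 over all genes. Without E13.5 p18mKO2+ replicate 3 the median over the 10 genes was -1.44. Nhlh2 stood at 26.92, 13.55 and 28.67 TPM at E13.5 and at 5.66, 10.55 and 2.4 TPM at E16.5. The groups did not overlap, with a log2 change of -2.03 ± 0.38 (SE; edgeR adjusted p = 0.0161). It lost its call without E13.5 p18mKO2+ replicate 1 (adjusted p = 0.0661), without E16.5 p18mKO2+ replicate 1 (0.109) and without the 2 libraries of both sexes (log2 change -1.49, adjusted p = 0.0825). It kept it in 11 of 15 settings (adjusted p from 1.01e-10 to 0.109).

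Ebf3 stood at 6.62, 2.13 and 71.87 TPM in E13.5 p18mKO2+ and at 1.31, 2.29 and 1.01 TPM in E16.5 p18mKO2+. In CPM the groups did not overlap, although E13.5 replicate 2 (2.13 TPM) and E16.5 replicate 2 (2.29 TPM) crossed in TPM. The log2 change of -4.17 ± 0.93 (edgeR adjusted p = 0.0422) rested on E13.5 replicate 3, without which it was -1.59 (adjusted p = 0.0916). Without both libraries of mixed sex it was -1.42 (edgeR adjusted p = 0.26). It also lost its call without each E16.5 p18mKO2+ library in turn (adjusted p = 0.186, 0.0912 and 0.179 for replicates 1 to 3), kept it in 6 of 15 settings, and had adjusted p from 3.04e-18 to 0.308.

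The changes of the other Cajal-Retzius transcription factor genes in p18mKO2+ were negative and did not reach the threshold. Lhx1 stood at 1.22, 0.52 and 19.14 TPM at E13.5 and at 0.19, 0.23 and 0 TPM at E16.5, a log2 change of -5.64 ± 1.37 (edgeR adjusted p = 0.055). Ebf2 stood at 1.75, 0.41 and 11.16 TPM and then at 0.56, 0.42 and 0.37 TPM, a change of -3.62 ± 0.89 (adjusted p = 0.0571). Without E13.5 replicate 3 these changes were -2.67 and -1.64 (adjusted p = 0.32 and 0.241), and in TPM the groups of Ebf2 overlapped. Lhx5 stood at 3.58, 0.24 and 13.03 TPM and then at 0.04, 0.91 and 0.37 TPM (-3.70 ± 1.14, adjusted p = 0.13). Without E13.5 replicate 3 its change was -2.18. Trp73 stood at 3.26, 1.73 and 2.98 TPM and then at 1.17, 2.26 and 0.24 TPM (-1.35 ± 0.55, adjusted p = 0.262). The groups of Lhx5 and of Trp73 overlapped. In all, 4 of the 10 genes (Lhx1, Ebf2, Ebf3 and Nhlh2) had groups that did not overlap in CPM, against 26.6% of all genes.

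Reln stood at 66.13, 35.3 and 74.12 TPM in E13.5 p18mKO2+ and at 42.55, 54.7 and 23.61 TPM in E16.5 p18mKO2+. The groups overlapped, and the log2 change of -0.71 ± 0.27 was not called (edgeR adjusted p = 0.228). Calb2 stood at 23.3, 4.56 and 10.79 TPM and then at 3.62, 11.44 and 3.23 TPM (-1.18 ± 0.58, adjusted p = 0.371). Lmx1a stood at 0.95, 0.71 and 2.97 TPM and then at 0.51, 2.29 and 0.14 TPM (-0.75 ± 0.85, adjusted p = 0.773), and Ttr at 562.03, 1016.52 and 28.68 TPM and then at 1069.38, 2610.66 and 466.65 TPM (1.195 ± 1.04, adjusted p = 0.684). The groups of all 3 overlapped. Replicate 2 was the highest E16.5 p18mKO2+ library in TPM for every member but Ebf2.

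Of the other lists, Nhlh1 was the only 1 of 15 further Cajal-Retzius genes to fall in p18mKO2+ (-1.43 ± 0.33, edgeR adjusted p = 0.0471), Lef1 the only 1 of 14 hem genes (-1.60 ± 0.35, adjusted p = 0.0396) and Lhx9 the only 1 of 7 thalamic genes (-3.51 ± 0.74, adjusted p = 0.0337). Dab1 was the only 1 of 12 Reelin signalling genes to rise (0.61 ± 0.14, adjusted p = 0.0432). No choroid plexus gene of 12 was called. Of all genes tested, 0.554% were called as lower and 1.08% as higher.

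**Figure D3:**
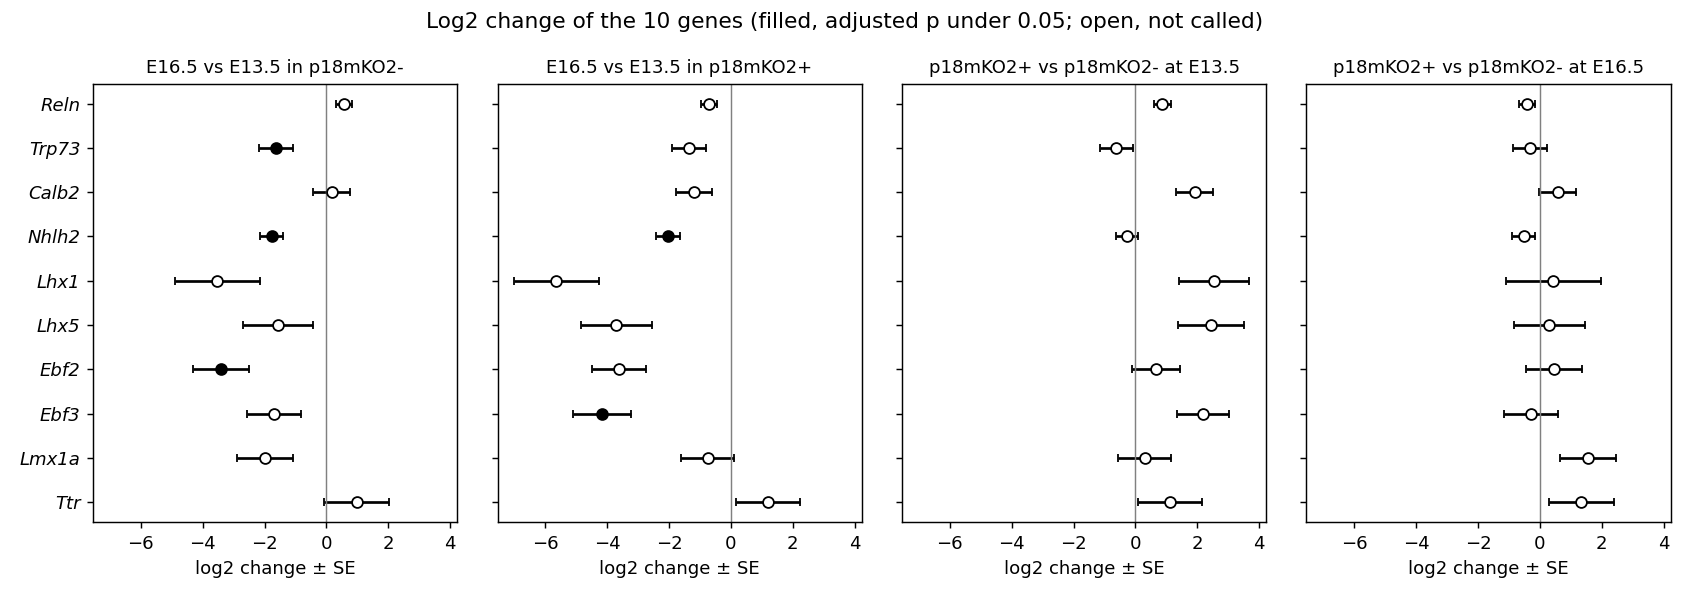
Log2 change and its SE for each of the 10 genes in 4 comparisons (2 of stage, 2 of the p18mKO2 label), from edgeR over all 12 libraries, with called changes filled. Nhlh2, Ebf2 and Trp73 (p18mKO2-) and Nhlh2 and Ebf3 (p18mKO2+) are the called changes, all below 0, and no gene is called between p18mKO2+ and p18mKO2- at either stage.

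The next comparison asked whether the p18mKO2 label changed the members at E13.5. Reln and Calb2 had the largest changes relative to their errors, both positive and both just short of the threshold. Of the 10 genes edgeR called 0, against 10.8% of all genes tested (7.29% higher, 3.49% lower). At an unadjusted p under 0.05 there were 5, against 25.4% of all genes. DESeq2 called 2 (Reln, adjusted p = 0.0162, and Calb2, 0.0114) and limma-voom 0. The median log2 change was 0.99 over the 10 genes and 0.01 over all genes, with 8 positive and 2 negative. Without p18mKO2+ replicate 3, the library that stood apart, the median over the 10 genes was -0.36, with 4 positive and 6 negative.

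Reln stood at 60.4, 38.3 and 58.8 CPM in E13.5 p18mKO2- and at 103.5, 61.6 and 122.1 CPM in E13.5 p18mKO2+. In CPM all p18mKO2+ libraries lay above all p18mKO2- libraries (30.7% of all genes had groups that did not overlap, in either direction), while in TPM p18mKO2+ replicate 2 (35.3) lay just below p18mKO2- replicate 1 (35.33). The log2 change was 0.87 ± 0.27 (SE; edgeR adjusted p = 0.0555), and 1.10 (adjusted p = 0.0154) without p18mKO2+ replicate 2 but 0.65 (adjusted p = 0.221) without p18mKO2+ replicate 3. Calb2 stood at 4.57, 3.05 and 1.41 TPM in p18mKO2- and at 23.3, 4.56 and 10.79 TPM in p18mKO2+. Its lowest p18mKO2+ library fell within the p18mKO2- range, and the log2 change was 1.92 ± 0.60 (adjusted p = 0.0554), or 2.32 (0.0208) without p18mKO2+ replicate 2. Without p18mKO2+ replicate 1 it was 1.16 (edgeR adjusted p = 0.292) and without replicate 3 it was 2.06 (0.0885).

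For the transcription factor genes Lhx1, Ebf3, Lhx5 and Ebf2 the values depended strongly on 1 library. With all libraries the log2 change at E13.5 was 2.55 ± 1.13 for Lhx1, 2.18 ± 0.84 for Ebf3, 2.44 ± 1.07 for Lhx5 and 0.66 ± 0.78 for Ebf2 (edgeR adjusted p = 0.174, 0.119, 0.17 and 0.66). Without p18mKO2+ replicate 3 it was -0.36 for Lhx1, -0.36 for Ebf3 and -1.29 for Ebf2, so the sign of each rested on that library, while Lhx5 was at 0.94 (edgeR adjusted p = 0.717). Trp73 and Nhlh2, whose levels there lay within the range of the other E13.5 libraries, stood at -0.62 ± 0.53 and -0.26 ± 0.36 (adjusted p = 0.52 and 0.718). Lmx1a stood at 0.30 ± 0.85, or -0.55 without the same library, and Ttr at 1.12 ± 1.04 (adjusted p = 0.876 and 0.564).

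Among the lists at E13.5, Tbr1 alone of 15 further Cajal-Retzius genes was called (0.96 ± 0.29, edgeR adjusted p = 0.05 after rounding). None of 14 hem genes and none of 12 choroid plexus genes was called, with median log2 changes of -0.95 and 0.38. Of 12 Reelin signalling genes, 2 rose and 0 fell, Vldlr by 0.92 ± 0.20 (adjusted p = 0.0107) and Dab1 by 0.50 ± 0.14 (adjusted p = 0.0344). Pan-neuronal genes rose in 6 of 12 and radial glia genes fell in 7 of 13, while 7.29% of all genes tested rose and 3.49% fell. Of 10 genes of the ventral telencephalon and its interneurons, some of which make Reelin or calretinin, 2 rose and 0 fell: Gad1, an enzyme of GABA synthesis, at 1.44 (edgeR adjusted p = 0.0255) and the interneuron gene Lhx6 at 1.37 (0.0166). Their summed level was 172.1 to 326.2 TPM in p18mKO2- and 396.8 to 652.2 TPM in p18mKO2+, with no overlap. At E16.5 it was 204.3 to 345.4 and 464.5 to 603.0 TPM, with 0 of the 10 called. The part of these 3 lists in the values of Reln and Calb2 was not tested.

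At E16.5 edgeR called 0 of the 10 genes between p18mKO2+ and p18mKO2-, against 0% of all genes tested. None of the 10 had an unadjusted p under 0.05 (2.54% of all genes did), DESeq2 and limma-voom called 0 of them, and all groups overlapped (7.95% of all genes did not). The median log2 change was 0.37 over the 10 genes, with 6 positive and 4 negative. Without p18mKO2+ replicate 2 it was -0.36, with 2 positive and 8 negative. Reln stood at 94.8, 84.2 and 54.8 CPM in p18mKO2- and at 58.6, 70.7 and 46.6 CPM in p18mKO2+, and its log2 change was -0.41 ± 0.27 (adjusted p = 1 in edgeR). The largest positive values belonged to Lmx1a at 1.54 ± 0.90 and Ttr at 1.34 ± 1.05. In TPM, replicate 2 was the highest p18mKO2+ library for both, and for every other member but Ebf2. That library was also the highest at E16.5 in summed hem genes (84.81 TPM, against 37.84 to 47.9 in the other two p18mKO2+ libraries) and summed choroid plexus genes (307.1 TPM). Without it the log2 change of Lmx1a was -0.01 and that of Ttr 0.56 (edgeR adjusted p = 1). The SEs of the 10 genes ran from 0.27 for Reln to 1.55 for Lhx1. With 3 libraries a group and 0% of all genes called, changes well above these SEs could also go undetected.

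The difference of the p18 effect between the stages, that is the effect at E16.5 minus the effect at E13.5, was called for 0 of the 10 genes, with 2.7% of all genes called. Reln had the only unadjusted p under 0.05 among them, at -1.28 ± 0.38 (SE, log2; edgeR adjusted p = 0.0952), the distance between its log2 changes of 0.87 (E13.5) and -0.41 (E16.5). DESeq2 called it (adjusted p = 0.0202) and limma-voom called 0 of the 10. Without E13.5 p18mKO2+ replicate 2 the difference for Reln was -1.51 (edgeR adjusted p = 0.0324), and without E13.5 p18mKO2+ replicate 3 it was -1.06 (adjusted p = 0.219). Ebf3 stood at -2.47 ± 1.21 (adjusted p = 0.337) and Calb2 at -1.35 (adjusted p = 0.464). Of the Reelin signalling genes Dab1 was called, at -0.89 ± 0.19 (adjusted p = 0.0289).

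The members did not follow each other alike across the libraries. Pearson correlations of log2 CPM over the 12 libraries, which share stage, dissection and depth and are given as descriptions, were 0.92 between Nhlh2 and Trp73 and 0.94 between Ebf3 and Lhx1. Without E13.5 p18mKO2+ replicate 3 (11 libraries) they were 0.93 and 0.90, and that between Ebf3 and Nhlh2 was 0.94 in place of 0.77. Reln correlated with Nhlh2 at 0.24 and with Trp73 at 0.28, so the Reln transcript did not track these transcription factor genes closely. Its highest value among the members was 0.64 with Calb2. Ttr correlated negatively with every other member, from -0.74 with Ebf3 to -0.01 with Calb2, although without E13.5 p18mKO2+ replicate 3 its values with Reln, Calb2 and Lmx1a were 0.138, 0.225 and 0.215.

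Genes outside the members with the most similar pattern were ranked by Pearson correlation over the 12 libraries, and not without E13.5 p18mKO2+ replicate 3. For the mean standardised level of the 8 Cajal-Retzius genes they were Uncx (0.94), Trim36 (0.93), Peg10 (0.92), Peg3 (0.91) and Fndc3a (0.90). Uncx stood at 11.16 TPM in E13.5 p18mKO2+ replicate 3 and at no more than 1.98 TPM in the other 11 libraries. For Ttr they were Kcne2 (0.95), Sostdc1 (0.95), Fxyd1 (0.93), Mfrp (0.92) and Ezr (0.91). Kcne2, a potassium channel subunit gene of choroid plexus epithelium, stood at 33.18 TPM in E16.5 p18mKO2+ replicate 2 and at 0.06 TPM in E13.5 p18mKO2- replicate 1, the libraries with the highest and the lowest Ttr level.

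**Figure D4:**
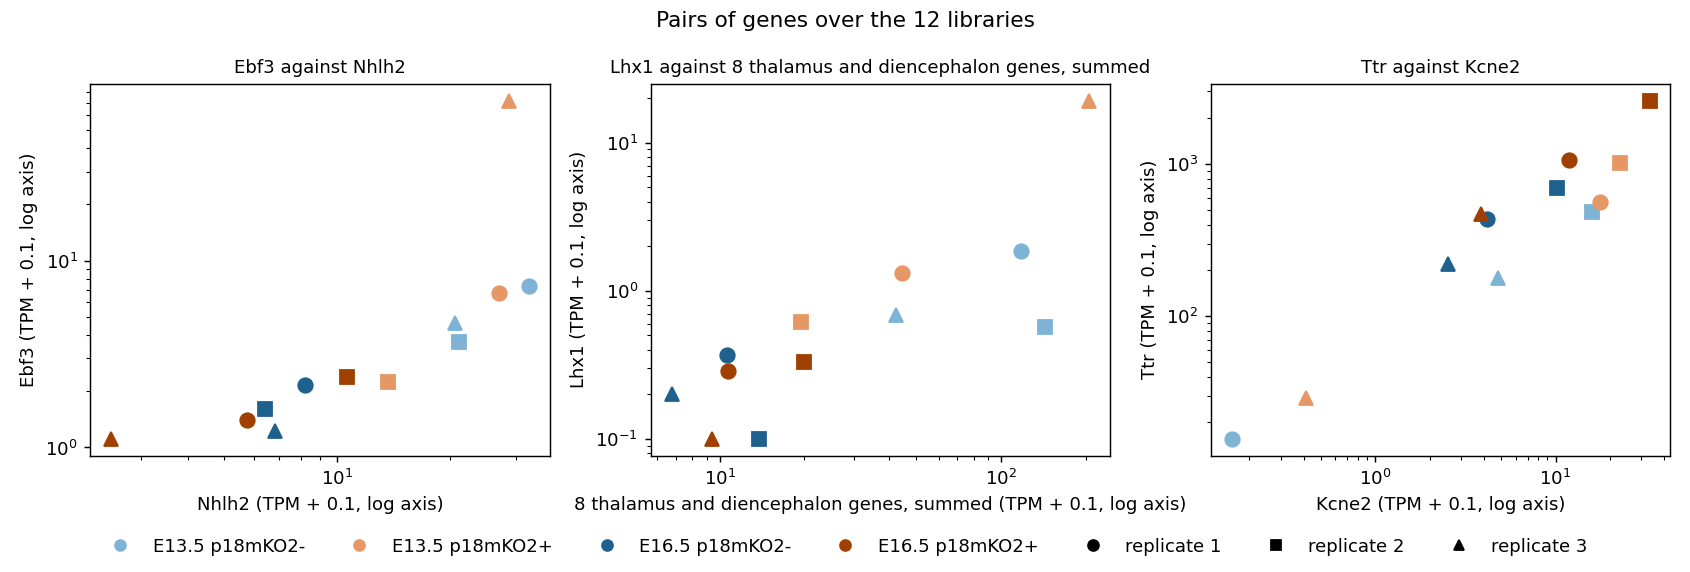
TPM + 0.1 of 3 pairs on log axes, 1 point per library with colour for the group and shape for the replicate: Ebf3 against Nhlh2, Lhx1 against the summed genes of the thalamus and diencephalon, and Ttr against Kcne2. E13.5 p18mKO2+ replicate 3 (71.87 TPM of Ebf3, 19.14 TPM of Lhx1) lies above the other libraries in the first pair and at the upper right in the next, and Ttr and Kcne2 rise together over the 12 libraries (r = 0.95 on log2 CPM).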

How the data were processed

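RNA from 12 libraries of laser-microdissected cortex was measured as polyadenylated RNA with a directional kit, per the labels' protocols. Tools named in the submitters' processing notes are STAR 2.7.2b, RSEM 1.2.31 and cutadapt 3.4, with the build GRCm38 (mm10). The authors deposited an expected count and a TPM level for each gene, per the file headers. RSEM shares reads that map to several genes, but for the 10 members its deposited posterior SD was 0 in all libraries. The lengths and posterior values that the authors deposited were used only to describe the files.

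Expected counts were rounded, filtered with filterByExpr and normalised by TMM. The quasi-likelihood model of edgeR 4.0.16 (R 4.3.3) gave each group 1 mean and used all 12 libraries (8 residual degrees of freedom, common biological coefficient of variation 0.311). Calls needed an adjusted p (Benjamini-Hochberg, over 16798 genes) under 0.05. The SE is the absolute log2 change divided by the square root of F. Alternatives were RLE, DESeq2 1.42.0, limma-voom (limma 3.58.1), a mean CPM of at least 5 or no filter, limma-trend on log2(TPM + 0.5), the replicate block, only the 6 libraries compared, and leaving out each library. A fit without the 2 libraries of mixed sex was added after seeing the data. The scripts were tested on simulated data. The members and lists were chosen with earlier results of these data known. The text names the 10 members, Cdkn2c, up to 3 genes of each list with the smallest p between stages in p18mKO2-, and the 5 genes of most similar pattern with a mean TPM of at least 1. Other names were chosen after their values were seen, and 1 gene that the rule selects is not reported here. Coordinates come from GENCODE M21, and figures were drawn with matplotlib 3.10.9.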

Additional observations from a re-analysis of the deposited data

Results flagged for a closer look

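None of the 10 members differed between the stages in its p18 effect by the edgeR test of that difference, against 2.7% of all genes tested. Of the comparison-list genes reported here, 7 did. The list genes were named for a small p between stages in p18mKO2-, a change that enters this difference with opposite sign. That choice favours such calls, so the count of 7 cannot be set against the members or all genes. The values are the log2 effect of p18mKO2+ against p18mKO2- at E16.5 minus that at E13.5, with its SE and the edgeR quasi-likelihood adjusted p. The effect was lower at E16.5 for the Reelin adaptor Dab1 at -0.89 ± 0.19 (edgeR adjusted p = 0.0289), the neuronal genes Dcx at -1.53 ± 0.22 (0.00241) and Mapt at -1.66 ± 0.39 (0.0386), and the deep-layer and subplate gene Tle4 at -0.97 ± 0.20 (0.0226). It was higher at E16.5 for the radial glia genes Hes5 at 1.32 ± 0.32 (0.0412), Emx2 at 0.99 ± 0.22 (0.0316) and Sox2 at 0.94 ± 0.19 (0.0219). None of the 7 kept its call on log2(TPM + 0.5) with limma-trend, where adjusted p ran from 0.0652 for Sox2 to 0.311 for Emx2. Leaving out 1 of the 12 libraries in turn, edgeR kept the call of Dcx in 12 of 12 fits, of Tle4 in 8, Sox2 in 6, Dab1 in 5, Emx2 in 4, and Hes5 and Mapt in 2 each.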

How the results depend on the processing

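The number of members called was 3 between stages in p18mKO2-, 2 between stages in p18mKO2+ and 0 in the other comparisons. In p18mKO2- it was 7 without a filter and 5 with only the 6 libraries. In p18mKO2+ it was 5 with DESeq2, 1 with limma-voom, 7 without a filter, 0 on log2(TPM + 0.5), 1 with only the 6 libraries and 0 without the libraries of both sexes. At E13.5 it was 2 with DESeq2, 6 without a filter and 1 at a mean CPM of at least 5, and for the difference between stages 1 with DESeq2 and 2 without a filter. The share of all genes called moved as well. In p18mKO2+ it was 5.05% with DESeq2, 2.41% with limma-voom, 3.57% without a filter, 0.863% on log2(TPM + 0.5), 3.94% with only the 6 libraries and 0.673% without the libraries of both sexes. At E13.5 it was 16% with DESeq2, 9.3% without a filter and 17.7% at a mean CPM of at least 5, and for the difference 6.68% with DESeq2 and 4.3% without a filter. Leaving out 1 library gave 2 to 3, 0 to 4, 0 to 4, 0 to 0 and 0 to 1 in the 5 comparisons. In p18mKO2- these fits called 23.5% to 26.5% of all genes. In p18mKO2+ the count was 1, 4 and 1 without E13.5 p18mKO2+ replicates 1 to 3 (0.665%, 0.855% and 2.1% of all genes). It was 0, 1 and 1 without E16.5 p18mKO2+ replicates 1 to 3 (0.432%, 0.91% and 0.658% of all genes). The 4 at E13.5 and the 1 for the difference came without E13.5 p18mKO2+ replicate 2 (10.3% and 2.99% of all genes). With the replicate block 4 members were called in p18mKO2-, 1 in p18mKO2+ and 2 at E13.5 (32.9%, 3.26% and 14.1% of all genes), Lhx1 was -3.81 in p18mKO2- (edgeR adjusted p = 0.0482), and the difference for Ebf2 was 0.07. Deviations of libraries with the same replicate number correlated at -0.07 to 0.21, and at 0.061 to 0.15 in the label comparison at E16.5. With 3 libraries a group such values cannot decide whether the numbers pair the libraries. As a hint from the data only, 6 of 6 libraries correlated best with their own number in the label comparison at E16.5, and 4, 1 and 0 of 6 in p18mKO2-, in p18mKO2+ and at E13.5.

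Signs turned as follows, as log2 values of uncalled changes, and the cause was not tested. With limma-voom Ebf2 was -0.35 at E13.5 and 1.10 in the difference, Lhx5 -0.34 at E16.5 and Trp73 -0.12 in the difference. On log2(TPM + 0.5) Ebf2 was -0.037 at E13.5 and 0.43 in the difference. Without the libraries of both sexes Lmx1a was 0.62 between stages in p18mKO2+, Lhx1, Ebf2, Ebf3 and Lmx1a were -0.36, -1.29, -0.36 and -0.55 at E13.5, Trp73 was 0.14 at E16.5, and Lhx1, Ebf2, Ebf3 and Nhlh2 were 1.39, 1.76, 0.25 and 0.27 in the difference. Leaving out 1 library gave Calb2 -0.15 to 0.59 between stages in p18mKO2- and Lmx1a -2.27 to 0.12 in p18mKO2+. At E13.5 it gave Lhx1 -0.36 to 3.31, Ebf2 -1.29 to 1.2, Ebf3 -0.36 to 2.72 and Lmx1a -0.55 to 0.71. At E16.5 it gave Trp73 -0.99 to 0.14, Lhx1 -0.18 to 1.05, Lhx5 -0.59 to 0.83, Calb2 -0.16 to 0.84 and Lmx1a -0.0102 to 2.15. In the difference it gave Trp73 -0.37 to 0.76, Lhx1 -2.86 to 0.80, Ebf2 -0.76 to 1.74, Ebf3 -3.01 to 0.078, Nhlh2 -0.79 to 0.10, Lmx1a -0.30 to 2.09 and Ttr -0.95 to 1.13. On log2(TPM + 0.5) the median label effect over all genes was 0.16 (E13.5) and 0.25 (E16.5) in log2, against 0.01 and -0.01 in counts. DESeq2 gave no adjusted p for 1 value, which was left out.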
